A study of Canis lupus familiaris with 4 samples.

Results

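Transcripts of 8 S100 genes, S100A1, S100A2, S100A4, S100A6, S100A10, S100A11, S100A13 and S100A16, were followed in 4 canine glioblastoma lines labelled as high, low, knocked down or overexpressed for annexin A2 (ANXA2). The genes were chosen by name, as members of the S100 family that include partners of annexins, with earlier results of these data known. Every probe set that the array annotation gives to one of these symbols alone was kept. They had 20 of the 29254 probe sets with a single gene symbol, and 8 of 15115 genes. S100A10 had 6 of the 20 probe sets and the other members had 14. The J3T-1 and J3T-2 lines come from the same canine glioma cells, J3T, and the labels give high ANXA2 for J3T-1 and low ANXA2 for J3T-2. J3T-1shA is labelled as J3T-1 with ANXA2 knocked down, and J3T-2A as J3T-2 with ANXA2 overexpressed. All were grown in the same serum-containing medium and are called subclones in the labels, and no vector control was analysed here. Total RNA of each line went on 1 Affymetrix canine array, so no value has a replicate and no test was made. Each ratio has the line labelled with more ANXA2 on top: J3T-2A over J3T-2 is called the overexpression pair, J3T-1 over J3T-1shA the knockdown pair, and J3T-1 over J3T-2 the parental pair. Higher or lower in a pair means the line on top against the one below.

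S100 proteins are small calcium-binding proteins of the EF-hand type that mostly work as dimers. On binding calcium they expose a surface that grips target proteins, among them annexins, myosins and enzymes. S100A10, also called p11, is the exception in the family, because it no longer binds calcium and is held in the active shape. It joins with ANXA2 in a membrane complex that binds tissue plasminogen activator and plasminogen, and the S100A10 protein is known to be degraded when ANXA2 is missing. The arrays measured RNA only, and in RNA from whole cultures fewer cells of a type cannot be told apart from less RNA per cell.

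Values are MAS 5.0 signals, intensities on a linear scale with each array scaled by the authors to one trimmed mean (495.8 to 496.0 here). A probe set was taken as measured in a comparison when its higher array had a signal of at least 250, and as different at a ratio over 2. For S100 genes with the dimmer array under 250, the ratio as deposited is given with a bound. The bound is the ratio with the dimmer signal set to 250, a step chosen after seeing the data. For other genes no bound is given, so the sizes of such ratios are uncertain. Of the 20 probe sets, 18 reached 250 on at least 1 array, 13 on all 4, and 2 on none. For genes with a second measured probe set, the difference between the log2 ratios of the pair of probe sets had an SD of 0.29 (3716 genes) in the overexpression pair, 0.37 (3760 genes) in the knockdown pair and 0.37 (3759 genes) in the parental pair. This SD served as the yardstick for single ratios, and it says nothing of how cultures of one line vary. The parental pair shares the J3T-1 array with the knockdown pair and the J3T-2 array with the overexpression pair, so it is not independent of them.

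The labels could not be checked by the ANXA2 signal. Its brightest probe set read 28656.0 on J3T-1, 30092.9 on J3T-1shA, 30102.5 on J3T-2 and 28774.6 on J3T-2A. These signals lie close together although the labels give high and low ANXA2, with J3T-1shA slightly above J3T-1 and J3T-2A slightly below J3T-2. Its second bright probe set read 24127.5, 25725.4, 30310.9 and 35650.8 on these arrays in that order. By that probe set J3T-2A was above J3T-2, as labelled, but J3T-1 was below both J3T-1shA and J3T-2. Directions below are between arrays as labelled. Of the glioma and astrocyte markers, VIM, CD44, SOX2 and SLC1A3 were over 250 on all 4 arrays. NES reached 250 on J3T-1shA alone. GFAP, AQP4 and the S100 family member S100B, which mark mature astrocytes, were under it on every array, and S100B did not exceed 33.6 by its brightest probe set. Of 7 myeloid markers on the array, 6 were under 250 throughout, S100A8 and S100A9 included, and so were 4 of 5 endothelial and 3 of 4 epithelial markers. The exceptions were C1QA, PECAM1 and KRT8. The summed epithelial markers ranged from 394.8 on J3T-2A to 1128.0 on J3T-2, and KRT8 made up most of this.

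Between J3T-2A and J3T-2, no S100 member was over 2-fold different, whereas 1.69% of 6860 measured genes passed 2-fold upward and 2.1% downward. The median log2 ratio of the 8 members was 0.03, and that of all measured genes was 0.0. S100A4 had the largest log2 ratio of the members in size, -0.80. Between J3T-1 and J3T-1shA, S100A2 was over 2-fold higher and S100A1 over 2-fold lower, which is 1 of 8 members in each direction. The S100A1 call was lost, leaving 0 lower, with a limit of 500 and with signals under 250 set to 250, and S100A16 made it 2 higher when the median of a gene's probe sets was used. Of 6944 measured genes, 3.8% were higher and 4.26% lower by this measure. The median log2 ratio of the members was 0.24 against 0.03 for all genes. Between J3T-1 and J3T-2, S100A1 was over 2-fold lower and no member was over 2-fold higher, beside 4.05% lower and 2.94% higher of 6967 genes. The median log2 ratios there were -0.09 for the members and 0.03 for all genes.

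**Figure D1:**
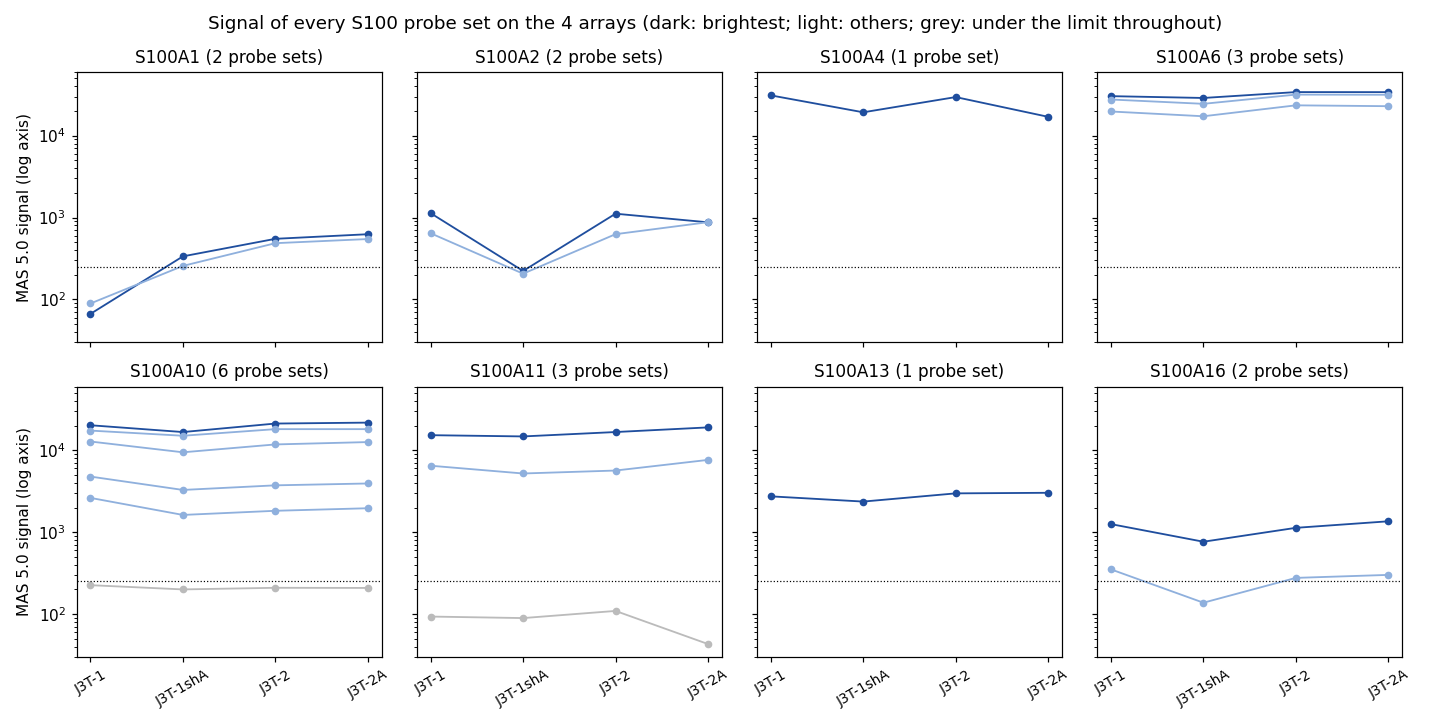
MAS 5.0 signal (y axis, log scale) of each S100 probe set on the 4 arrays (x axis), 1 array per line and no error bars. Each line joins 1 probe set, the dotted line is the signal of 250, and both S100A1 probe sets fall under it on J3T-1 while both S100A2 probe sets and the dimmer S100A16 one fall under it on J3T-1shA.

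S100A10, the ANXA2 partner, was nearly level between J3T-2A and J3T-2 and a little lower on J3T-1shA than on J3T-1. Its brightest probe set had signals of 20191.0 on J3T-1, 16677.5 on J3T-1shA, 21178.0 on J3T-2 and 21740.9 on J3T-2A. J3T-1shA was the lowest array, and the highest was 1.30-fold above it. The log2 ratio was 0.04 for the overexpression pair, 0.28 for the knockdown pair and -0.07 for the parental pair, all within the yardstick.

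The other S100A10 probe sets were also lower on J3T-1shA than on J3T-1. A companion probe set read 17377.7 on J3T-1, 15034.0 on J3T-1shA, 18099.4 on J3T-2 and 18098.1 on J3T-2A. A further one read 12781.1, 9440.8, 11776.7 and 12583.6 on the same arrays in that order. In Affymetrix naming the ending x marks probe sets in which some probes can match other sequences too, and 4 of the 6 S100A10 probe sets have it. The fourth had 4770.7 on J3T-1 and 3277.0 on J3T-1shA, with 3730.0 on J3T-2 and 3929.6 on J3T-2A. The fifth had 2620.1 on J3T-1, 1623.5 on J3T-1shA, 1824.0 on J3T-2 and 1959.4 on J3T-2A. The remaining one stayed under 250, at 200.1 to 225.4. All 6 were lowest on J3T-1shA. Over the 5 measured probe sets the log2 ratio of the knockdown pair ran from 0.21 to 0.69 with a median of 0.44, and 3 of them exceeded the yardstick of 0.37. These probe sets were read on the same 2 arrays and are not replicates. Such a ratio was common, as 1917 of 6944 measured genes lay further above 0 than S100A10 by its brightest probe set. Of the 308 genes with a mean signal of 10000 and over, 72 did. For the overexpression pair the 5 ran from 0.0 to 0.10, all within 0.29. For the parental pair they ran from -0.07 to 0.52, so the probe sets did not settle a direction between the parental lines.

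Set against the other members, S100A10 lay in the middle in each comparison. Of the 7 other members, 3 had a higher log2 ratio and 4 a lower one in the overexpression pair, and the same counts held in both other pairs. On the log2 scale, S100A10 minus the median of the others was 0.01 in the overexpression pair, 0.06 in the knockdown pair and 0.05 in the parental pair. The others ranged from -0.80 to 0.26, from -2.33 to 2.34 and from -3.04 to 0.15 in these comparisons. With other processing, S100A10 minus the median of the others ran from -0.17 to 0.23 in the knockdown pair, so its sign was not settled.

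**Figure D2:**
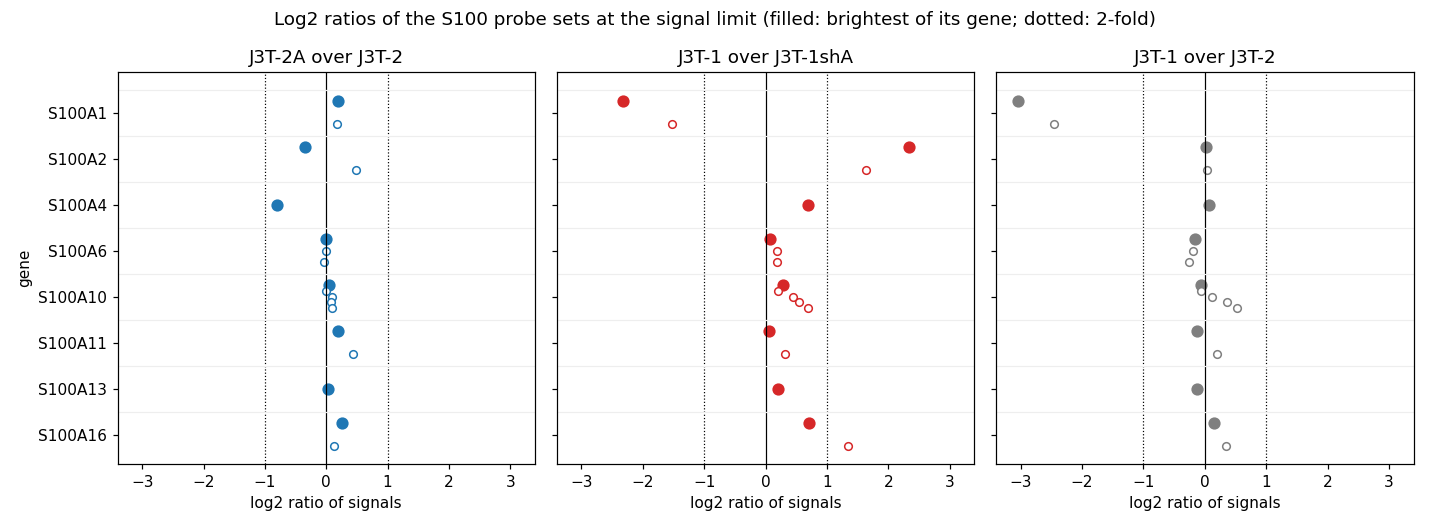
Log2 ratio of signals (x axis) of every S100 probe set that reached a signal of 250 in the comparison, by gene (y axis), with filled points for the brightest probe set of a gene and open points for the rest. Dotted lines mark 2-fold, and S100A1 and S100A2 are the genes past them in all their probe sets in at least 1 comparison.

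S100A11 and S100A6, the usual partners of annexin A1 and annexin A11, were within 2-fold on all arrays by each measured probe set. S100A11 had signals of 15275.8 on J3T-1, 14748.4 on J3T-1shA, 16685.2 on J3T-2 and 19006.2 on J3T-2A. Its second measured probe set read 6473.7, 5203.6, 5654.5 and 7624.0 on these arrays. J3T-2A was highest and J3T-1shA lowest in both. The log2 ratios for the overexpression pair were 0.19 and 0.43, and those for the knockdown pair were 0.05 and 0.32. Of these, 0.43 exceeded the yardstick of 0.29. After quantile normalization the ratio of 0.05 became -0.04, so the brightest probe set gave no firm order for the knockdown pair. The third S100A11 probe set stayed under 250, at 43.1 to 109.3.

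S100A6, calcyclin, had 3 probe sets, each read on all arrays. The brightest had signals of 30320.3 on J3T-1, 28808.6 on J3T-1shA, 33985.2 on J3T-2 and 33945.2 on J3T-2A. The second read 27592.5, 24435.5, 31665.9 and 31519.5 on these arrays, and the third 19695.6, 17227.1, 23423.4 and 22865.1. J3T-2 and J3T-2A stood a little above J3T-1 and J3T-1shA in all 3 probe sets. The log2 ratios of the overexpression pair were -0.03 to 0.0, those of the knockdown pair 0.07 to 0.19 and those of the parental pair -0.25 to -0.16, all within the yardstick. The highest signals of any probe set on the arrays were 44434.6 to 46646.0, and whether signals near that level still follow the amount of RNA was not tested.

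S100A4, also called metastasin or fibroblast-specific protein, was lower on both engineered lines than on their parents. This regulator of non-muscle myosin had 1 probe set, which read 30988.1 on J3T-1 and 29544.0 on J3T-2. The same probe set read 19255.1 on J3T-1shA and 16960.0 on J3T-2A. The parental arrays were thus close to each other and both derived arrays were below them. J3T-2A was 1.74-fold below J3T-2 (log2 ratio -0.80) and J3T-1 was 1.61-fold above J3T-1shA (0.69), while the log2 ratio of the parental pair was 0.07. Knockdown and overexpression of ANXA2 thus went with the same direction relative to the parent. The pairs share no array. Neither ratio reached 2-fold, and both exceeded the yardstick.

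Ratios narrowed with signal, which bears on how the S100A4 values are read. Among the 308 genes with a mean signal of 10000 and over, the SD of the log2 ratio was 0.23 for the overexpression pair and 0.41 for the knockdown pair, against 0.44 and 0.67 among genes with a mean from 250 to under 1000. Of these 308 genes, 2 lay further below 0 than S100A4 in the overexpression pair and 12 lay further above 0 in the knockdown pair. Of the 6563 genes measured in both comparisons, 47 others were at least as far as S100A4 in both directions together, and 1 of them was among the 308. S100A4 was singled out after its values were seen. The markers of fibroblasts and pericytes ran the other way, in that the summed signal of their 5 genes was 24730 on J3T-1 and 28670 on J3T-2, and 62900 on J3T-1shA and 43330 on J3T-2A. Of these, DCN, COL1A1 and ACTA2 were over 2-fold lower in the knockdown pair, COL1A1 was over 2-fold higher in the overexpression pair, and PDGFRB was under 250 throughout. COL1A1 and COL1A2 made up most of the sum, and DCN was lower in the overexpression pair, as S100A4 was, with a log2 ratio of -0.70. Some markers of other cell types were also lower there, KRT8 with 288.0 on J3T-2A against 1076.3 on J3T-2 (-1.90), and PECAM1 with 161.0 against 773.2 (-2.26). The glioma and astrocyte marker SLC1A3 went the other way, with 3998.8 on J3T-2A against 1996.2 on J3T-2 (1.0). Of the others measured in that list, SOX2 was lower (-0.31), as S100A4 was, and CD44 (0.08) and VIM (-0.01) were nearly level. In the knockdown pair SLC1A3 (-1.18) and NES (-1.20, with J3T-1 under 250) were over 2-fold lower, opposite to S100A4. SOX2 (-0.83) and VIM (-0.06) were also below 0 there. CD44 was above 0 by each probe set (0.66 to 0.86), as S100A4 was. No glioma and astrocyte marker was over 2-fold higher in that pair. The part of all these markers in the S100A4 values was not tested.

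**Figure D3:**
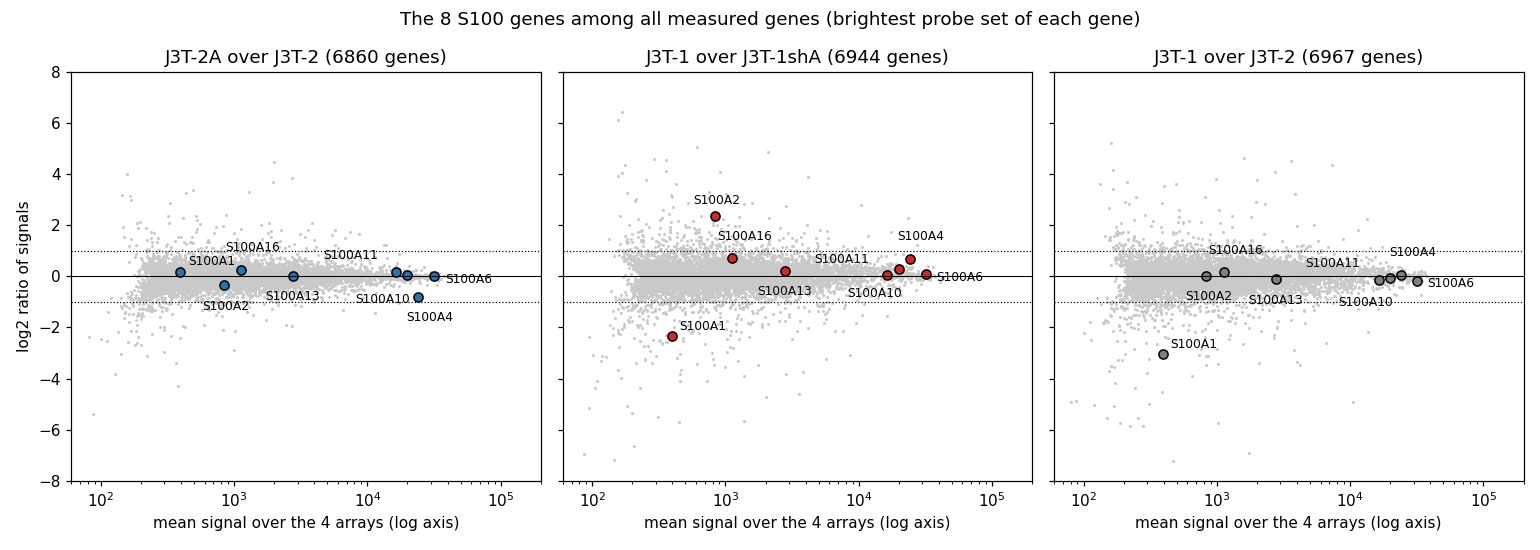
Log2 ratio of signals (y axis) against mean signal over the 4 arrays (x axis, log scale) for every measured gene (grey) and the 8 S100 genes (coloured), each gene by its brightest probe set and 1 array per line. Dotted lines mark 2-fold, S100A4 lies at -0.80 in the left panel where few genes of such signal do, and S100A1 and S100A2 lie outside the lines in the middle panel.

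S100A1 was under 250 on J3T-1 alone, and J3T-1shA was the next lowest array. This member is best known as a regulator of calcium cycling in heart and skeletal muscle. Its brightest probe set had signals of 66.7 on J3T-1, 335.9 on J3T-1shA, 549.9 on J3T-2 and 625.6 on J3T-2A. The second had 89.3, 256.8, 486.3 and 546.3 on these arrays. Both gave the same order of lines, with J3T-1 under the limit of 250 and J3T-2 and J3T-2A highest. As deposited, J3T-1 was 5.04-fold and 2.88-fold below J3T-1shA, and 8.24-fold and 5.45-fold below J3T-2. With J3T-1 set to 250, it was at least 1.34-fold and 1.03-fold below J3T-1shA, and at least 2.20-fold and 1.95-fold below J3T-2. A pseudocount of 80 gave log2 ratios of -1.50 and -2.10 by the brightest probe set, against -2.33 and -3.04 as deposited. The sizes of these ratios are therefore uncertain. The log2 ratios of the overexpression pair, 0.19 and 0.17, were within the yardstick. The fibroblast and pericyte markers given above differed between J3T-1 and J3T-1shA in the same direction as S100A1 and opposite to S100A2. In the parental pair, PECAM1 (-4.39, with J3T-1 under 250), DCN (-1.74) and KRT8 (-1.31) had log2 ratios below 0, as S100A1 did. Those of C1QA (1.06) and ACTA2 were above 0, ACTA2 with 562.2 on J3T-1 against 24.9 on J3T-2, which is under 250. The part of these markers in the S100A1 and S100A2 values was not tested.

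The genes with a pattern most like S100A1 over the 4 arrays, by distance of the mean-centred log2 signals among 7240 other genes, were NAPRT, CMBL and LDHD. Their distances on the log2 scale were 0.34, 0.53 and 0.66. NAPRT, an enzyme of NAD synthesis, had 160.1 on J3T-1, 652.8 on J3T-1shA, 1151.2 on J3T-2 and 1081.8 on J3T-2A. The measure rests on 4 arrays and is given as a description of them.

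S100A2 was low on J3T-1shA alone. This gene is known from epithelial cells, where its protein is found in the nucleus and binds p53. Its brightest probe set read 1130.1 on J3T-1, 222.7 on J3T-1shA, 1114.0 on J3T-2 and 874.3 on J3T-2A. The second read 642.8, 206.3, 626.4 and 877.4. Both were under 250 on J3T-1shA and over it on the other arrays. As deposited, J3T-1 was 5.07-fold and 3.12-fold above J3T-1shA, and with J3T-1shA set to 250 it was at least 4.52-fold and 2.57-fold above. The parental lines were nearly level, with log2 ratios of 0.02 and 0.04. For the overexpression pair the probe sets ran opposite ways, at -0.35 and 0.49, each beyond the yardstick of 0.29, so no direction is given.

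The patterns most like S100A2 were those of EPB41L1, ETV1 and TIMP1, at distances of 0.29, 0.34 and 0.36. ETV1, a transcription factor of the ETS family, had 5413.3 on J3T-1, 1331.6 on J3T-1shA, 5910.6 on J3T-2 and 3824.2 on J3T-2A. TIMP1, a metalloproteinase inhibitor, had 28103.8, 5806.6, 37282.3 and 21772.1. These genes were picked for this likeness, so that they share its lowest array is no separate finding.

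S100A16 and S100A13 also had their lowest signal on J3T-1shA, by smaller steps than S100A2. S100A16, a widely expressed member, had signals of 1254.2 on J3T-1, 764.4 on J3T-1shA, 1129.8 on J3T-2 and 1357.5 on J3T-2A. Its second probe set had 351.4, 137.7, 276.7 and 301.0. J3T-1shA was lowest in both, with J3T-1 1.64-fold above it by the brightest probe set and 2.55-fold by the second, where J3T-1shA was under 250 and the bound is at least 1.41-fold. Both log2 ratios, 0.71 and 1.35, exceeded the yardstick. Those for the overexpression pair were 0.26 and 0.12 and those for the parental pair were 0.15 and 0.34, all within it. S100A13, which takes part in the release of FGF1, had 1 probe set, with signals of 2737.0 on J3T-1, 2363.4 on J3T-1shA, 2976.1 on J3T-2 and 3024.7 on J3T-2A. Its log2 ratios were 0.02, 0.21 and -0.12 in the overexpression, knockdown and parental pairs, all within the yardstick. FGF1 itself was under 250 on every array.

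J3T-1shA was the lowest array for 6 of the 8 genes, and for 15 of the 18 probe sets that reached 250 on an array. Of all 7241 genes that reached 250 on an array, 28.1% were lowest on J3T-1shA. The genes were S100A2, S100A6, S100A10, S100A11, S100A13 and S100A16. The 15 probe sets belong to these genes and were read on the same arrays, so they are not separate from the 6. No share over all probe sets is given for them. The margins were small for S100A6 and S100A11, and after quantile normalization S100A11 left the group, which made it 5 genes and 14 probe sets. Of the remaining members, S100A1 was lowest on J3T-1, as were 26.0% of all genes, and S100A4 on J3T-2A, as were 18.2%. No member was lowest on J3T-2, where 27.7% of all genes were.

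In the canine reference (UU_Cfam_GSD_1.0), S100A10 and S100A11 are neighbours on one chromosome and the other 6 members lie in a cluster of S100 genes on another. In that cluster S100A1 is followed by S100A13, S100A14, S100A16, S100A2, S100A3, S100A4, S100A5 and S100A6, and then by S100A8, S100A12 and S100A9. The largest ratios did not run along the cluster. S100A1 was low on J3T-1, but the gene next to it, S100A13, was within 1.28-fold over all arrays, although the 2 gene spans overlap in the reference. S100A16 and S100A2, which lie side by side, were both lowest on J3T-1shA. Between S100A4 and S100A6, S100A5 reached 250 on J3T-2 and J3T-2A, with 382.0 on J3T-2 and 483.4 on J3T-2A, and was under 250 on J3T-1 (150.2) and J3T-1shA (129.8). S100A5 was 2.54-fold lower in the parental pair as deposited, and at least 1.53-fold lower with J3T-1 set to 250, while the S100 genes on either side of it were within 2-fold on all arrays. Of the 8 other S100 genes on the array, S100A5 was the one that reached 250. S100A8 had 89.6 to 195.2, and S100A9, S100A14, S100A3, S100B, S100G and S100P were also under 250 throughout.

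**Figure D4:**
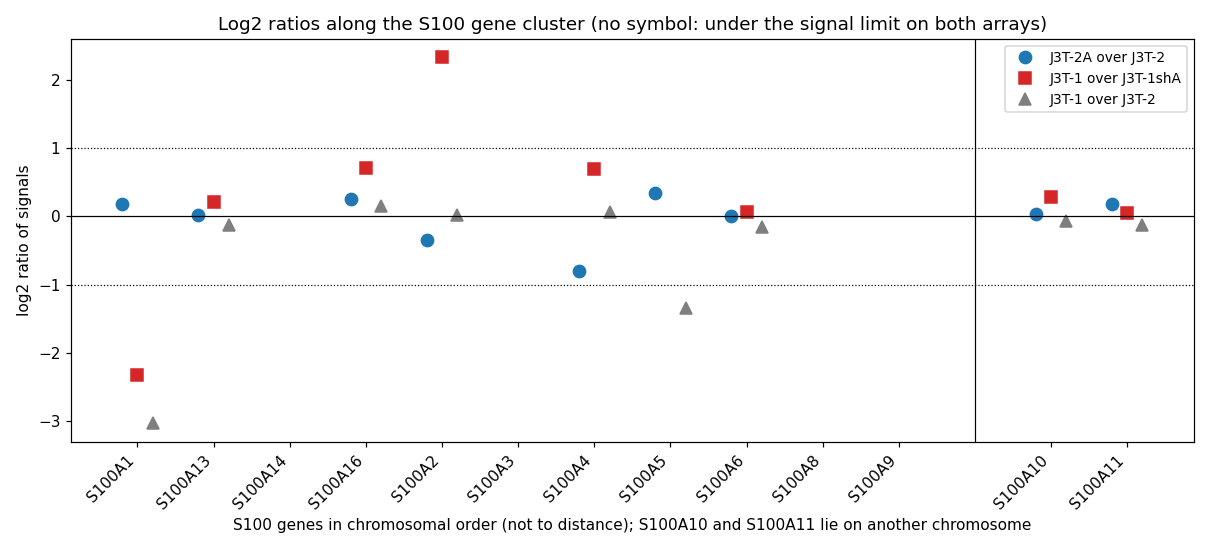
Log2 ratio of signals (y axis) of the S100 genes in chromosomal order (x axis, not to distance), by the brightest probe set, for the 3 comparisons with 1 array per line. Genes with no marker drawn were under a signal of 250 on both arrays, and S100A1, S100A2 and S100A5 pass the dotted 2-fold lines as deposited while the other measured genes do not.

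None of the 5 partner annexins was over 2-fold different in any comparison by its brightest probe set. Few genes were: 1.69% of all measured genes were higher and 2.1% lower in the overexpression pair. The shares were 3.8% and 4.26% in the knockdown pair, and 2.94% and 4.05% in the parental pair. The median log2 ratio of the 5 annexins was 0.04 for the overexpression pair, 0.38 for the knockdown pair and -0.07 for the parental pair. ANXA2, which binds S100A10, had log2 ratios of -0.07 in each comparison, and 0.23, -0.09 and -0.33 by its second bright probe set. AHNAK, a large scaffold protein bound by the complex of S100A10 and ANXA2, had signals of 869.8 on J3T-1, 656.6 on J3T-1shA, 862.6 on J3T-2 and 974.6 on J3T-2A by its brightest probe set. The log2 ratios were 0.18 in the overexpression pair, 0.41 in the knockdown pair and 0.01 in the parental pair. The 3 other measured AHNAK probe sets gave -0.02 to 0.27 for the knockdown pair. ANXA1, which binds S100A11, read 27976.7 on J3T-1, 21528.9 on J3T-1shA, 23566.4 on J3T-2 and 27955.6 on J3T-2A. All 3 ANXA1 probe sets were lowest on J3T-1shA, and their log2 ratios for the knockdown pair were 0.26 to 0.51. ANXA11 had log2 ratios of 0.04, 0.39 and 0.31, and its second probe set gave -0.21, 0.04 and 0.06.

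ANXA6, an annexin that S100A1 and S100A6 can bind, had signals of 1533.1 on J3T-1, 2543.4 on J3T-1shA, 1629.0 on J3T-2 and 1683.9 on J3T-2A. J3T-1shA was the highest array in all 3 probe sets, with log2 ratios of the knockdown pair of -0.73, -0.30 and -1.22. ANXA5 had 7192.6 on J3T-1, 4298.6 on J3T-1shA, 9569.3 on J3T-2 and 8615.2 on J3T-2A, with a log2 ratio of 0.74 in the knockdown pair. Of the 5 partner annexins, ANXA1, ANXA5 and ANXA11 were lowest on J3T-1shA by the brightest probe set and ANXA6 was highest there.

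**Figure D5:**
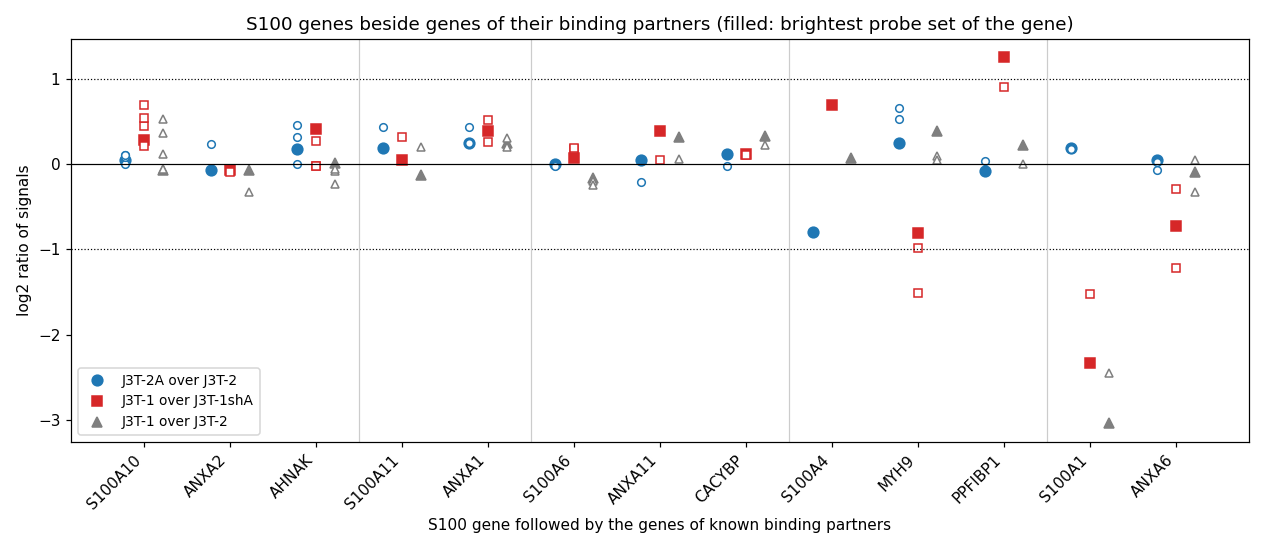
Log2 ratio of signals (y axis) of S100 genes and the genes of known binding partners (x axis) for the 3 comparisons, with every measured probe set shown and the brightest filled, 1 array per line. MYH9, ANXA6 and S100A1 lie below 0 and S100A4 and PPFIBP1 above 0 for J3T-1 over J3T-1shA (squares) by each probe set, S100A10 lies above 0 there too, and S100A10, S100A4 and ANXA2 stay within the dotted 2-fold lines.

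Of the 23 targets and receptors of S100 proteins on the array, 10 were under 250 on every array, AGER and TLR4 among them, which encode receptors for S100 proteins outside the cell. Of those measured, none of 13 was over 2-fold different in the overexpression pair, 2 of 12 were over 2-fold higher in the knockdown pair and 1 of 12 in the parental pair, beside 3.8% and 2.94% of all measured genes. None was over 2-fold lower in either, beside 4.26% and 4.05% of all measured genes. In the overexpression pair, 1.69% of all measured genes were higher and 2.1% lower. The list medians were 0.15, 0.12 and 0.31. PPFIBP1, liprin beta, which binds S100A4, had 1034.2 on J3T-1, 433.5 on J3T-1shA, 888.9 on J3T-2 and 838.2 on J3T-2A. It was 2.39-fold higher in the knockdown pair by this probe set and 1.86-fold higher by the second. MYH9, the heavy chain of the non-muscle myosin that S100A4 acts on, had 5215.6 on J3T-1, 9119.9 on J3T-1shA, 3998.6 on J3T-2 and 4760.6 on J3T-2A. J3T-1 was 1.75-fold below J3T-1shA there, and the 3 measured probe sets gave log2 ratios of -0.81, -0.99 and -1.51. S100A4 and MYH9 thus differed in opposite directions between J3T-1 and J3T-1shA.

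IQGAP1, a scaffold protein of the cell cortex, had 2302.4 on J3T-1 against 771.8 on J3T-1shA, 695.5 on J3T-2 and 671.2 on J3T-2A. It was 2.98-fold higher in the knockdown pair and 3.31-fold in the parental pair, and its other measured probe sets gave log2 ratios of 0.83 and 1.24, and of 0.99 and 0.87. CACYBP, which binds S100A6, was within 2-fold in each comparison (log2 ratios 0.12, 0.11 and 0.33).

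The plasminogen activators PLAU and PLAT make plasmin from plasminogen, which the complex of ANXA2 and S100A10 binds. Of the 7 genes of the plasminogen system on the array, 5 were measured. PLAU, urokinase, was over 2-fold higher in the overexpression pair (2414.0 against 874.4) and over 2-fold lower in the knockdown pair (859.0 against 2334.2). PLAT, tissue plasminogen activator, had 367.7 on J3T-1, 1223.3 on J3T-1shA, 1037.0 on J3T-2 and 1487.4 on J3T-2A, and was over 2-fold lower in both comparisons that hold J3T-1. PLG and SERPINB2 were under 250 on every array. Of the 5 measured genes, 1 was over 2-fold higher in the overexpression pair, 2 were over 2-fold lower in the knockdown pair and 1 in the parental pair. The shares of all measured genes were 1.69%, 4.26% and 4.05%, and the list medians were 0.10, 0.10 and 0.07.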

How the data were processed

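Total RNA of 4 canine lines was hybridized to GeneChip Canine Genome 2.0 arrays, 1 per line. Per the methods, the authors computed a signal intensity per probe set with MAS 5.0 at default settings and scaled each array globally to a stated trimmed mean of 100. The deposited intensities had trimmed means (2% off each end) of 495.8 to 496.0, so the stated scale was multiplied by 5 and the signal limit chosen here for that scale, 50, became 250. No detection calls were used, and precision is limited by having 1 array per line. The build behind the array annotation is not given in the sources used here, so the RefSeq table (UU_Cfam_GSD_1.0) served only for names and for which genes neighbour or overlap each other, and its positions are not printed.

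Gene names came from the array annotation. The gene identifiers of all 20 member probe sets were found in the RefSeq table, which changed 0 symbols, and 0 probe sets with several symbols named a member. The brightest probe set by mean signal stood for its gene in counts. Signals were divided without pseudocount or further normalization with Python 3.11.15, numpy 2.4.6 and pandas 2.3.3, and the step was tested on simulated data. Named were all member probe sets, other S100 genes, partner annexins, listed plasminogen genes and S100 targets over 2-fold or binding such a member, and the 3 nearest patterns of members spanning over 2-fold. AHNAK, CACYBP, FGF1, MYH9 and some listed genes under the limit were named outside this rule, and the brightness classes, the count of genes like S100A4 and the counts of lowest arrays were added, after values were seen. Members and lists were chosen with earlier results of these data known. Alternatives were quantile normalization, division by the array median, a pseudocount of 80, the median of a gene's probe sets, a limit of 500 and no limit, and, added after seeing the data, signals under 250 set to 250. Protein and transcript sequences were not analysed here.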

Additional observations from a re-analysis of the deposited data

Results flagged for a closer look

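The S100A4 values ran in opposite directions in the comparisons of ANXA2-high with ANXA2-low lines, at a log2 ratio of -0.80 for J3T-2A over J3T-2 and 0.69 for J3T-1 over J3T-1shA. This difference between the pairs was not tested, since each line has 1 array, and S100A4 has 1 probe set. Both values exceeded the spread between probe sets of a gene. Quantile normalization gave -0.81 and 0.63, and division by the array median gave -0.74 and 0.66. The other alternatives could hardly move a gene with 1 probe set of such high signal, so they lend these values no support.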

How the results depend on the processing

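Of 42 recomputed counts of members over 2-fold different, 39 equalled the value as reported. With the median of the probe sets of a gene, 2 members in place of 1 were higher in J3T-1 over J3T-1shA, because S100A16 passed 2-fold with a log2 ratio of 1.03. With a limit of 500, 0 members in place of 1 were lower there, because S100A1 had no array of the pair at that signal, and its ratio could not be given. With signals under 250 set to 250, an alternative chosen after seeing the data, 0 members were lower there as well, because S100A1 became -0.43, and S100A1 became -1.14 in J3T-1 over J3T-2. Of 182 recomputed log2 ratios and differences, 176 changed by less than the SD between 2 probe sets of a gene. S100A1 moved from -2.33 to -1.50 with a pseudocount of 80 and to -1.93 with the median of its probe sets in J3T-1 over J3T-1shA, and from -3.04 to -2.10 with the pseudocount in J3T-1 over J3T-2. S100A2 moved from -0.35 to 0.07 with the median of its probe sets in J3T-2A over J3T-2. S100A10 ranged from 0.04 to 0.10, from 0.20 to 0.44 and from -0.07 to 0.12 in J3T-2A over J3T-2, J3T-1 over J3T-1shA and J3T-1 over J3T-2. Its difference from the median of the other members in J3T-1 over J3T-1shA was 0.06 as reported. That difference became -0.02 after quantile normalization, -0.17 with a limit of 500 and 0.23 with the median of the probe sets of a gene. Neither scaling moved the median of all genes by more than 0.06. No replicate could be left out. No paired analysis was possible because each line has 1 array and the labels carry no replicate numbers.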
